A study of Mus musculus with 6 samples.

Results

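The unfolded protein response genes described here are 33 mouse genes, given by name and found in the gene table of single-cell libraries from whole liver, out of 31253 genes with a count. Each library came from a single mouse, and there were 3 mice in each of 2 groups. The knockout group was Stingfl/fl Cdh5-Cre+, in which a Cre recombinase driven by the promoter of Cdh5, the gene of an endothelial cadherin, deletes the floxed Sting gene in endothelial cells. The control group was Stingfl/fl Cdh5-Cre- littermates, which carry the floxed gene without the recombinase. Mice of both groups had a western diet with carbon tetrachloride (CCl4) for 12 weeks from 8 weeks of age, a model of metabolic dysfunction-associated steatohepatitis, so no untreated liver was in the comparison. The list itself names genes and uses no measured value, although it was chosen with earlier results of these data known.

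The endoplasmic reticulum folds proteins that a cell secretes or places in its membranes, and the unfolded protein response adjusts its capacity. The 3 sensors in its membrane start separate branches. IRE1, encoded by Ern1, splices the messenger RNA of Xbp1 so that the active transcription factor XBP1 is made. ATF6 is cut in the Golgi to release a transcription factor, and PERK, encoded by Eif2ak3, phosphorylates the translation factor eIF2 alpha, which lowers protein synthesis and favours translation of ATF4. Plasma cells, which secrete antibody in bulk, are the textbook example of a cell with a highly active IRE1 and XBP1 branch. Splicing, cleavage and phosphorylation are not seen in 3′ counts, so every value below is a level of RNA. Each gene was put in 1 branch by its best known regulator, although several answer to more than 1, which gave 13 genes for IRE1, 13 for ATF6 and 7 for PERK.

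The sites through which the branches are known to act were looked for in RefSeq promoters (build GRCm38.p6), from 250 bases before to 50 after each start, on both strands, and 29 of the 33 genes had such a promoter in the table. Listed genes were counted if any of their promoters matched, while the shares of all promoters count each promoter singly. The endoplasmic reticulum stress element (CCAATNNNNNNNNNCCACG) is bound by ATF6 with NF-Y and also by XBP1. This element was written in a promoter of 9 of these 29 genes (Dnajc3, Pdia6, Syvn1, Hspa5, Hsp90b1, Creld2, Calr, Canx and Derl3) and in 39 of all 32851 promoters (0.119%). Its compact form (ATTGGNCCACG) was in 2 of the 29 (Dnajb11 and Herpud1) and in 0.0365% of all promoters. A short form of the site of ATF4 (TGATGNAA) was in 4 of the 29 (Herpud1, Trib3, Asns and Chac1), against 3.97% of all promoters. A core of the XBP1 site (TGACGTGG, whose other strand begins with the CCACG that ends both stress elements) was in 0 of the 29 and in 0.676% of all. Examples from genes whose levels are described below follow, each 5′ to 3′ on the strand that reads as the motif, with the motif letters that were required in capitals.
Hspa5: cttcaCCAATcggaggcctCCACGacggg
Hsp90b1: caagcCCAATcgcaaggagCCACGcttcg
Creld2: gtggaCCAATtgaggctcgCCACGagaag
Derl3: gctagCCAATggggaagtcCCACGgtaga
Pdia6: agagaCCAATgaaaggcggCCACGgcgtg
Dnajc3: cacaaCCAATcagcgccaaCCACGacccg
Asns: ccacaTGATGAAActtcc
Chac1: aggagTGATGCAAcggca
The site of Hspa5 lies at chr2:34772020-34772048 on the forward strand, 65 bases before the RefSeq start, and that of Dnajc3 at chr14:118937822-118937850 on the forward strand, 105 bases before it. The site of Hsp90b1 lies at chr10:86705633-86705661 on the reverse strand, 212 bases before the start, and that gene has another 107 bases before it. The sites of Creld2 (chr15:88819515-88819543) and Derl3 (chr10:75893237-75893265) read as the motif on the reverse strand, 126 and 156 bases before their starts, and that of Pdia6 (chr12:17266486-17266514) on the forward strand, 98 bases before its start. The ATF4 sites are at chr6:7693220-7693237 on the reverse strand for Asns, 23 bases before the start, and at chr2:119351044-119351061 on the reverse strand for Chac1, 193 bases before it. A match of letters is a description of the promoter and not a measured site.

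The libraries held between 55017937 and 73867890 unique molecular identifiers (UMIs), and 41744 cells were used. Although the label for cell type is liver sinusoidal endothelial cells, the whole liver was dissociated and the counts hold many types: 12789 T-like, 8228 B-like, 2643 endothelial-like, 2626 NK or ILC1-like, 2619 mesothelial-like, 2470 cholangiocyte-like, 933 cDC1-like (a dendritic cell type), 927 neutrophil-like, 862 plasma-like, 710 smooth muscle or mural-like, 542 fibroblast-like, 281 mature DC-like, 266 hepatocyte-like and 250 granulocyte progenitor-like cells. No class was named as macrophages, and the endothelial cluster led by the sinusoidal genes Stab2 and Clec4g held 220 cells. The targeted gene, listed as Sting1, had 21.8, 14.6 and 22.0 CPM (scaled as for the genotype comparison below) in knockout endothelial-like cells, against 28.0, 26.7 and 27.8 CPM in control ones, without overlap (log2 fold change -0.48, standard error 0.18, edgeR adjusted p = 0.752), and the 3′ counts need not cover the deleted exons. The groups also lay apart downwards in B-like (log2 fold change -0.80) and NK or ILC1-like cells (-0.79), and upwards in cDC1-like cells (0.62). They overlapped in T-like cells (0.07), and none of these passed the adjusted test. Pairs of libraries shared at most 0.328% of the smaller library's barcodes.

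Plasma-like cells stood above the other classes for most of the 33 genes. With levels given as UMIs of the gene per 1000000 UMIs of the class in a library (CPM) and averaged over the 6 mice, 25 genes were highest in plasma-like cells among the 14 classes, and 22 of these exceeded the next class in every mouse compared. Against B-like cells, the class from which plasma cells arise, 27 genes were higher in plasma-like cells in every mouse, 4 were lower in every mouse and the remaining 2 (Ddit3 and Trib3) were mixed. The median gene was 4.26 times as high in plasma-like as in B-like cells. Immunoglobulin genes took 19.1% to 33.2% of the UMIs of plasma-like cells and 0.787% of those of B-like cells, and without them in the totals the median ratio was 5.71. For the 4 genes lower in every mouse the ratio of means was then 0.851 (Eif2ak3), 0.486 (Ppp1r15a), 1.085 (Dnajb9) and 1.116 (Atf4). Among the 7564 genes of all kinds at 10 CPM or more on average, 24.5% were higher in plasma-like cells in every mouse and the median log2 ratio was -0.37, while 26 of the 31 unfolded protein response genes at that level were higher in every mouse (83.9%, median log2 ratio 2.08). The listed genes were kept out of the genes used for clustering. The classes come from clustering all the same, so these levels are a description without a test.

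**Figure D1:**
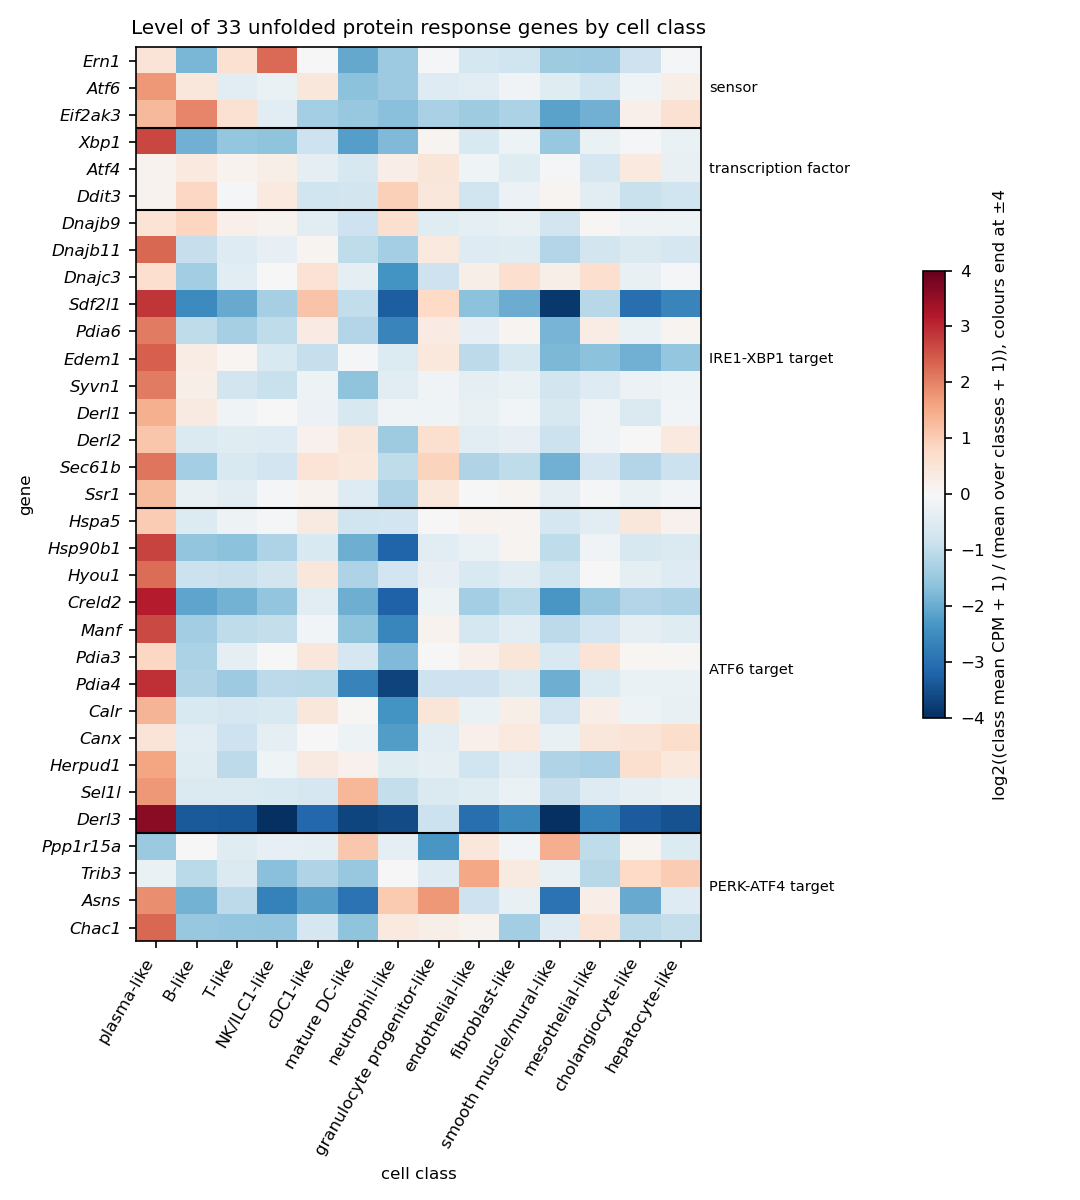
Level of each of the 33 genes (rows, grouped by role) in 14 cell classes (columns), as the log2 ratio of the class mean CPM plus 1 to the mean over classes plus 1, averaged over the libraries with at least 10 cells of the class. The plasma-like column is red for most IRE1 and ATF6 targets, 25 of 33 genes being highest there, and Ppp1r15a is blue in it.

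The 3 sensors were each highest in a different class. Ern1, whose product is both a kinase and the nuclease that splices Xbp1, reached 1075, 1180.4 and 1088 CPM in NK or ILC1-like cells of knockout mice and 869, 1061 and 1187 CPM in those of control mice. Those values exceeded the T-like level, the next class at 344 ± 57.2 CPM (SD, n = 6), in every mouse, and plasma-like cells came after it at 322 ± 70.04 CPM (SD, n = 6). B-like cells had 63.0 ± 6.16 CPM of Ern1 (SD, n = 6). Among T-like clusters Ern1 was uneven, with 882 ± 172 CPM in the cluster led by Il23r, Cd163l1 and Trdc, 643 ± 115.4 CPM in the cluster led by Il4 and 193 ± 19.9 to 238 ± 39.7 CPM in the 3 largest (SD, n = 6 mice each). The NK or ILC1-like clusters led by Klrb1b and Ncr1 and by Klra4 and Klra8 had 1112 ± 118 and 936 ± 139.6 CPM.

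Atf6 was highest in plasma-like cells, at 841, 926 and 923 CPM in knockout mice and 927, 1252 and 951 CPM in control mice. B-like cells followed at 403 ± 57.4 CPM and cDC1-like cells at 400.2 ± 45.8 CPM (SD, n = 6), and these neighbours differed by less than their spread. Eif2ak3 was highest in B-like cells, at 507, 556 and 485 CPM in knockout mice and 477, 569 and 515 CPM in control mice, and the plasma-like level was lower in every mouse at 331 ± 51.9 CPM (SD, n = 6). T-like and hepatocyte-like cells had 206 ± 26.0 and 204 ± 20.4 CPM of Eif2ak3, and the remaining classes at most 154 CPM. Mural-like cells were lowest for it at 29.8 ± 15.7 CPM (SD, n = 6).

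**Figure D2:**
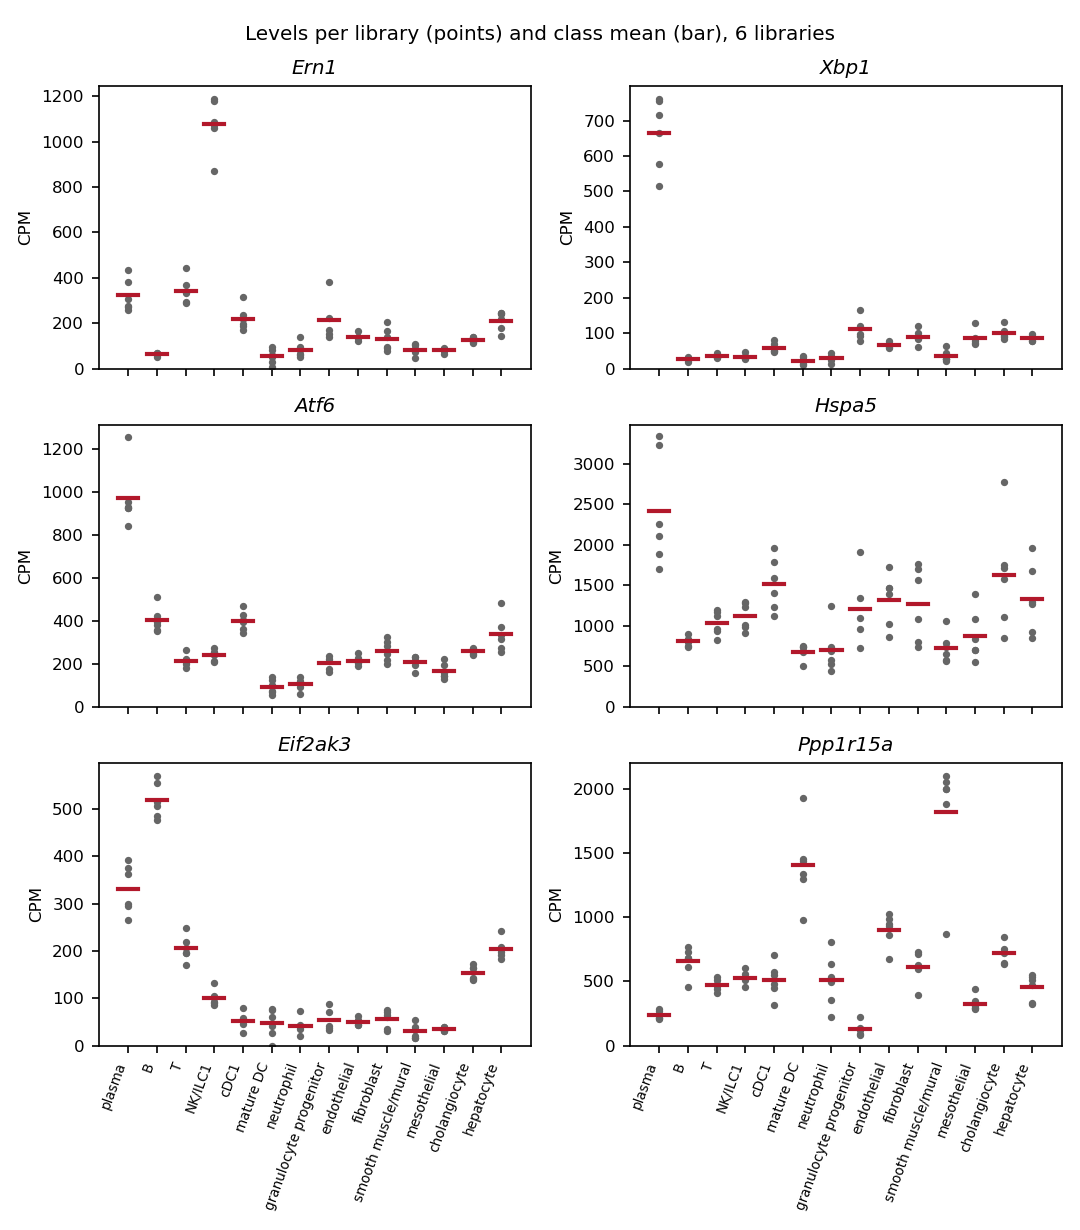
Level of 6 genes in CPM (vertical axes from 0) in 14 cell classes, with a point for each library that had at least 10 cells of the class and a bar for the class mean. Ern1 peaks in NK or ILC1-like cells, Atf6, Xbp1 and Hspa5 in plasma-like cells, Eif2ak3 in B-like cells and Ppp1r15a in mural-like cells.

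Of the transcription factors, Xbp1 followed plasma-like cells closely. It stood at 717, 756 and 665 CPM in those of knockout mice and at 515, 760.5 and 579 CPM in those of control mice, every value far above the 26.2 ± 4.57 CPM of B-like cells (SD, n = 6). The next of the 14 classes was granulocyte progenitor-like, at 111 ± 33.4 CPM (SD, n = 5), then cholangiocyte-like at 99.98 ± 17.7 CPM (SD, n = 6). Atf4 was nearly flat over classes, with its highest class at 420.1 ± 94.5 CPM (granulocyte progenitor-like, SD, n = 5), its lowest at 188 ± 25.3 CPM (mesothelial-like, SD, n = 6) and plasma-like cells at 328 ± 49.9 CPM. Ddit3, which encodes CHOP, a factor linked to cell death under prolonged stress, had 96.2 ± 30.5 CPM in neutrophil-like, 88.3 ± 6.98 CPM in B-like and 54.3 ± 24.7 CPM in plasma-like cells (SD, n = 6). The gene table lists Ddit3 under a pair of overlapping identifiers, and all 18358 of its UMIs fell on the first.

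IRE1 and XBP1 targets were led by genes of protein entry and folding. Sdf2l1, a partner of the luminal chaperones, had 457 ± 121 CPM in plasma-like cells, 136 ± 41.8 CPM in cDC1-like cells and 9.80 ± 3.11 CPM in B-like cells (SD, n = 6). Pdia6, a disulfide isomerase, had 459 ± 70.5 CPM in plasma-like cells against 54.0 ± 7.62 CPM in B-like cells. Sec61b, a subunit of the translocation channel, had a mean of 1446 CPM in plasma-like cells and 127 CPM in B-like cells, and Dnajb11, a co-chaperone of BiP, 283 and 29.3 CPM. Edem1, which passes misfolded glycoproteins on for degradation, had 717 CPM in plasma-like cells, and the ubiquitin ligase gene Syvn1 had 116 CPM. These compared with 168 CPM of Edem1 and 32.1 CPM of Syvn1 in B-like cells. The degradation channel genes Derl1 and Derl2 and the translocon gene Ssr1 were 2.07, 3.37 and 2.94 times as high in plasma-like as in B-like cells on average. Dnajc3, a co-chaperone that also inhibits PERK, hardly separated plasma-like cells (380.4 CPM) from fibroblast-like cells (376 CPM), and was above them in 3 of 6 mice. The exception was Dnajb9, a co-chaperone known as an XBP1 target, whose mean was 191 CPM in plasma-like and 236 CPM in B-like cells and which was lower in plasma-like cells in every mouse. That order depended on the totals, since without immunoglobulin genes in them its plasma-like mean was 1.085 times the B-like mean.

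ATF6 targets were mostly chaperones and disulfide isomerases, and 11 of the 12 peaked in plasma-like cells. Hsp90b1, the luminal HSP90, was at 3484, 3036 and 3696 CPM in plasma-like cells of knockout mice and at 3498, 4269 and 4265 CPM in those of control mice, against 189 ± 26.6 CPM in B-like cells. Creld2, a disulfide isomerase-like protein, had 398 ± 94.3 CPM in plasma-like and 9.30 ± 1.89 CPM in B-like cells (SD, n = 6). Pdia4 had 685 ± 108 CPM in plasma-like cells and 38.0 ± 6.39 CPM in B-like cells, with neutrophil-like cells lowest at 5.88 ± 6.64 CPM. Manf, a secreted stress-induced factor, had 1162 CPM in plasma-like and 70.3 CPM in B-like cells, although it overlaps Rbm15b on the same strand in GENCODE M21 and its reads may not all be its own. Hspa5, which encodes BiP, the chaperone that holds the sensors inactive, was more even than these. Its plasma-like mean of 2418 CPM was 1.49 times the cholangiocyte-like mean of 1627 CPM, higher in every mouse, and its lowest class was mature DC-like at 683 ± 94.98 CPM.

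The remaining ATF6 targets differed more in their ratios. Hyou1, a chaperone of the HSP110 kind, was 8.98 times as high in plasma-like as in B-like cells, Sel1l, the partner of Syvn1 in degradation, 5.07 times, Pdia3 4.26 times, Herpud1 4.17 times and the lectin chaperone Calr 3.93 times. Canx, the membrane-bound relative of Calr, was the member of the group that did not peak in plasma-like cells, with 290.1 CPM in hepatocyte-like and 256 CPM in plasma-like cells, the hepatocyte-like level being higher in 4 of 6 mice. Derl3, a degradation channel gene, had 298 ± 68.6 CPM in plasma-like cells and 1.40 ± 1.04 CPM in B-like cells, there from 59 UMIs, and its next class was granulocyte progenitor-like at 12.6 CPM. Free RNA can give UMIs in cells that do not express a gene, and its part was not tested. Per 1000 UMIs of the immunoglobulin gene Igkc, Derl3 had 1.79 UMIs in plasma-like cells, 1.88 in granulocyte progenitor-like, 2.05 in mural-like, 1.42 in endothelial-like and 1.49 in neutrophil-like cells. The ratio was higher in T-like cells (5.62, from 87 Derl3 UMIs) and cDC1-like cells (21.9, from 26 UMIs) and lower in B-like cells (0.326).

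The PERK and ATF4 targets did not share a pattern. Ppp1r15a, which encodes GADD34, the subunit that reverses eIF2 alpha phosphorylation, was low in plasma-like cells, which ranked 13 of 14 classes for it with 238.5 ± 31.4 CPM (SD, n = 6). It was highest in mural-like cells, at 866, 2102 and 1999 CPM in knockout mice and 1999, 1887 and 2052 CPM in control mice, and next in mature DC-like cells at 1406 ± 308 CPM. Knockout mouse 1 alone gave the low mural-like value, from 12 cells, where each other mouse had at least 32. Ppp1r15a is also an early response gene, and the summed level of 25 genes known to respond to tissue dissociation was 59050 CPM in mural-like, 60530 CPM in endothelial-like, 27550 CPM in mature DC-like and 13970 CPM in plasma-like cells. The part of dissociation in the Ppp1r15a order was not tested. Asns, for asparagine synthesis, had 34.8 ± 8.43 CPM in plasma-like cells (SD, n = 6), 31.9 ± 12.9 CPM in granulocyte progenitor-like cells (SD, n = 5) and 1.66 ± 0.445 CPM in B-like cells (SD, n = 6). Chac1, which degrades glutathione, had 14.1 ± 12.9 CPM in plasma-like cells, with 190 UMIs in all there and 3 in B-like cells. Trib3, a pseudokinase that restrains this branch, was low throughout and highest in endothelial-like cells at 12.3 ± 4.05 CPM (SD, n = 6).

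Set by branch, plasma-like cells were high for the median IRE1 and ATF6 gene and near the mean over classes for the median PERK gene. The PERK genes were split there. Asns and Chac1 were highest in plasma-like cells, while Ppp1r15a ranked 13 of 14 classes. Each plasma-like branch median was higher without immunoglobulin genes in the totals, as given in the closing section. The median gene of a branch, as the log2 ratio of its class mean to its mean over classes, was at 2.06 for IRE1, 1.74 for ATF6 and 0.13 for PERK in plasma-like cells. Neutrophil-like cells were low for IRE1 and ATF6 genes, with -1.37 for IRE1, -2.23 for ATF6 and 0.25 for PERK. Granulocyte progenitor-like cells had 0.32 for IRE1, -0.39 for ATF6 and 0.23 for PERK, and cDC1-like cells 0.10, 0.00 and -0.78. Over the 14 classes, which share libraries and differ in depth, Spearman's rho between pairs of genes had a median of 0.64 among ATF6 genes, 0.34 among IRE1 genes, 0.48 between these branches, 0.10 among PERK genes and 0.09 between PERK genes and each of the others. The gene least like the rest was Ppp1r15a, with a median rho of -0.43, and the gene most like them was Pdia6, with 0.60.

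Levels also varied within classes. Finer clustering split plasma-like cells mainly into a cluster of 604 cells and a cluster of 186 cells led by genes of cell division. The larger cluster had 738 ± 119 CPM of Xbp1 and 392 ± 88.8 CPM of Ern1, and the dividing cluster had 530.1 ± 104 CPM of Xbp1 and 181 ± 41.3 CPM of Ern1 (SD, n = 6 mice each). Hspa5 hardly separated them, with 2479 ± 960 CPM in the larger cluster and 2352 ± 422 CPM in the dividing cluster. Finer clustering also named 181 plasmacytoid dendritic-like cells, another secretory immune type, with 762 ± 204 CPM of Atf6, 405 ± 68.1 CPM of Ern1 and 307 ± 84.8 CPM of Xbp1, while Derl3 was there at 0.872 CPM. These cells were not among the 14 classes ranked above. Their Atf6 and Xbp1 means exceeded those of every class but plasma-like cells, and their Ern1 mean that of every class but NK or ILC1-like cells. Among endothelial-like clusters Hspa5 averaged 1319 CPM in the cluster led by Rspo3, Selp and Vwf, 1159 CPM in that led by Mecom and Gja5, 1586 CPM in the lymphatic-like one and 733 CPM in the sinusoidal-like one, where only 4 libraries had at least 10 cells. Trib3 had its highest endothelial level, 29.2 ± 11.3 CPM (SD, n = 6), in the lymphatic-like cluster.

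For the comparison of genotypes UMIs were summed per mouse and class, and the values below are CPM scaled with TMM factors. In endothelial-like cells, the class at which the deletion is directed, 32 of the 33 genes passed the filter on low counts (Derl3 did not) and edgeR's quasi-likelihood test with Benjamini-Hochberg adjustment called 0 of them, as it called 0% of all 12234 genes. At an unadjusted p under 0.05 there were 3 of the 32 by edgeR, where 6.52% of all genes reached it, and 2 by DESeq2, where 4.63% did, and DESeq2 called 0 of the 32 after adjustment. The knockout mean was lower for 20 genes and higher for 12, and the median log2 fold change was -0.08, beside 0.01 over all genes. In 4 of the 32 genes all knockout mice lay below all control mice, against 6.15% of all genes, and in 1 all lay above, against 6.61%.

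The 4 endothelial genes whose groups separated downwards were Hspa5, Hyou1, Hsp90b1 and Ppp1r15a. Hspa5 had 854, 991 and 1400.0 CPM in knockout mice, against 1504, 1739 and 1515 CPM in control mice. Every knockout value lay below every control value, knockout mouse 3 being close to the controls. Its log2 fold change was -0.55 with a standard error of 0.19 (edgeR, unadjusted p = 0.0186, adjusted p = 0.752). An exact two-sided permutation test of the 3 and 3 values gave p = 0.1, the smallest that this design allows. Any 3 and 3 values without overlap give that p, so it adds nothing to their separation. Hyou1 had 20.8, 19.4 and 23.7 CPM in knockout mice, against 25.5, 33.1 and 27.0 CPM in control mice (log2 fold change -0.42, standard error 0.16, edgeR adjusted p = 0.752). Hsp90b1 had 424, 415 and 443 CPM in knockout mice, against 479, 546 and 525 CPM in control mice (log2 fold change -0.27, standard error 0.11, edgeR adjusted p = 0.752). These 3 genes all encode chaperones of the lumen, and the highest knockout value of each lay near the lowest control value. Ppp1r15a had 662, 923 and 870.3 CPM in knockout mice, against 1052, 992 and 959 CPM in control mice (log2 fold change -0.29, edgeR adjusted p = 0.769), and without knockout mouse 1 the log2 fold change was -0.16.

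Of the genes with a higher mean in knockout endothelial-like cells, 1 had groups that did not overlap. Sel1l, the degradation gene, had 73.7, 54.4 and 57.4 CPM in knockout mice, against 46.0, 49.4 and 54.3 CPM in control mice (log2 fold change 0.31, standard error 0.15, edgeR adjusted p = 0.769). The lowest knockout value nearly met the highest control value, and without knockout mouse 1 the log2 fold change was 0.15. Derl2 had 21.6, 14.9 and 19.1 CPM in knockout mice, against 14.4, 16.8 and 14.2 CPM in control mice, with overlap. Dnajc3 had 330, 261 and 282 CPM in knockout mice, against 243, 259 and 295 CPM in control mice, and Chac1 had 2.73, 3.89 and 1.77 CPM in knockout mice, against 2.47, 1.86 and 1.80 CPM in control mice, both with overlap. The sensors and transcription factors differed little, with log2 fold changes of 0.10 for Ern1, -0.08 for Atf6, 0.11 for Eif2ak3, -0.02 for Xbp1, -0.17 for Atf4 and 0.03 for Ddit3, and each was at or below its standard error. By branch, endothelial-like cells had 6 IRE1 genes higher and 7 lower, 2 ATF6 genes higher and 10 lower, and 4 PERK genes higher and 3 lower, and none passed the test.

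**Figure D3:**
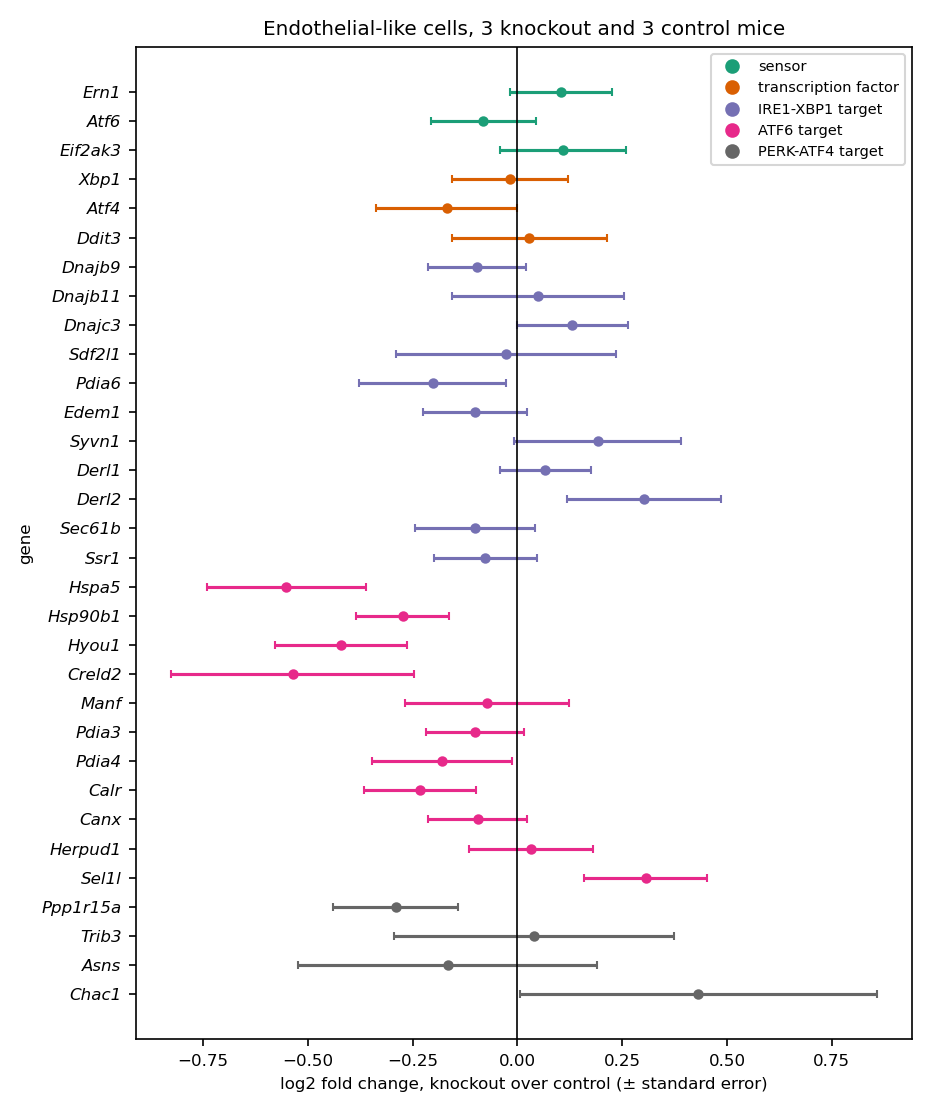
Log2 fold change of knockout over control in endothelial-like cells (horizontal axis, bars are standard errors, 3 mice a group) for the 32 tested genes, coloured by role. Hspa5 at -0.55, Hyou1 at -0.42 and Hsp90b1 at -0.27 lie left of 0, and Sel1l at 0.31 lies right of it.

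Genes known to respond to tissue dissociation and heat shock lay lower in the same libraries. In endothelial-like cells 24 of the 25 listed had a lower knockout mean (median log2 fold change -0.37, 12 at an unadjusted p under 0.05, 0 called by edgeR), and their summed level was 43806, 50296 and 62032 CPM in knockout mice, against 63516, 72206 and 73861 CPM in control mice. The groups did not overlap. The knockout mice stood in the order in which they stood for Hspa5, and the control mice did not. In the other tested classes the median of that list was -0.23 in B-like, -0.30 in NK or ILC1-like, -0.24 in T-like, -0.28 in cDC1-like, -0.26 in fibroblast-like, -0.50 in mesothelial-like, -0.43 in neutrophil-like, -0.06 in plasma-like and 0.11 in cholangiocyte-like cells. In cholangiocyte-like cells that sum was 59644, 56351 and 57752 CPM in knockout mice, against 48327, 54662 and 54893 CPM in control mice, while Hspa5 had 862, 1117 and 1599 CPM in knockout mice, against 1740.0, 2725 and 1708 CPM in control mice. The part of dissociation in the levels of Hspa5 and the other genes was not tested. Immunoglobulin transcripts, a sign of free RNA, were uneven among endothelial-like sums, at 10097, 464 and 364 CPM in knockout mice, against 966, 2053 and 285 CPM in control mice, and T cell markers summed to 43.2, 42.1 and 55.7 CPM in knockout mice, against 92.5, 58.6 and 67.7 CPM in control mice.

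Across the 10 tested classes, edgeR called 0 of the 301 combinations of gene and class, and the smallest adjusted p was 0.148. At an unadjusted p under 0.05 there were 42 combinations (13.95%, against 7.92% over all genes), 39 with a lower and 3 with a higher knockout mean. All classes come from the same 6 mice, so their values are given side by side and are not independent. The median log2 fold change of the listed genes was -0.11 in B-like, -0.16 in NK or ILC1-like, -0.09 in T-like, -0.23 in cDC1-like, -0.09 in cholangiocyte-like, -0.13 in fibroblast-like, -0.22 in mesothelial-like, -0.21 in neutrophil-like and -0.05 in plasma-like cells, where that over all genes was between -0.01 and 0.01. The listed genes share regulators, are not independent of each other and were chosen with earlier results of these data known. Of all genes edgeR called 0.0205% in NK or ILC1-like cells and 0.0242% in T-like cells, and 0% in each of the other classes.

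Hspa5 was the gene that most often separated the genotypes. Its log2 fold change was negative in all 10 classes, from -0.18 in B-like to -0.95 in fibroblast-like cells, and its groups did not overlap in 9. It stayed negative in all 130 combinations of class and alternative setting. The share of all genes that kept the same sign or lay apart in as many classes was not counted, here or for the genes below. The median mitochondrial share of a cell, a sign of RNA quality, was higher in every knockout mouse than in any control mouse in 3 of the 10 classes: T-like (1.80% to 2.33%, against 1.63% to 1.75% in control mice), NK or ILC1-like (1.83% to 2.21%, against 1.51% to 1.64% in control mice) and mesothelial-like (1.86% to 2.26%, against 1.60% to 1.75% in control mice). Control mouse 2 had the lowest median UMIs per cell in all 10 classes, as in endothelial-like cells with 5845 UMIs against at least 8740 in the other mice. Without that mouse Hspa5 was still negative in 10 of 10 classes, between -0.96 and -0.22, and the part of RNA quality was not tested. In fibroblast-like cells it had 858, 746 and 1140.0 CPM in knockout mice, against 1679, 1740 and 1891 CPM in control mice (standard error 0.21, unadjusted p = 0.000823, edgeR adjusted p = 0.999). In mesothelial-like cells it had 705, 547 and 706 CPM in knockout mice, against 820, 1416 and 1124 CPM in control mice (log2 fold change -0.78, standard error 0.20, edgeR adjusted p = 0.148). NK or ILC1-like cells had 1029, 864 and 1008 CPM in knockout mice, against 1339, 1220.3 and 1315 CPM in control mice (log2 fold change -0.42, edgeR adjusted p = 0.629), and T-like cells 956, 790.4 and 962 CPM in knockout mice, against 1242, 1096 and 1191 CPM in control mice (log2 fold change -0.38, edgeR adjusted p = 0.644). Plasma-like cells, where the gene is highest, were the class with overlap, at 2668, 1560 and 2018 CPM in knockout mice, against 2091, 2836 and 3472 CPM in control mice (log2 fold change -0.43, standard error 0.24). Deletion by Cdh5-Cre is directed at endothelial cells, and the other classes are given because the same libraries hold them. Sting1 also lay lower in knockout B-like (log2 fold change -0.80) and NK or ILC1-like cells (-0.79), without passing the adjusted test in edgeR. Whether the deletion reached classes other than endothelial-like cells was not tested.

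**Figure D4:**
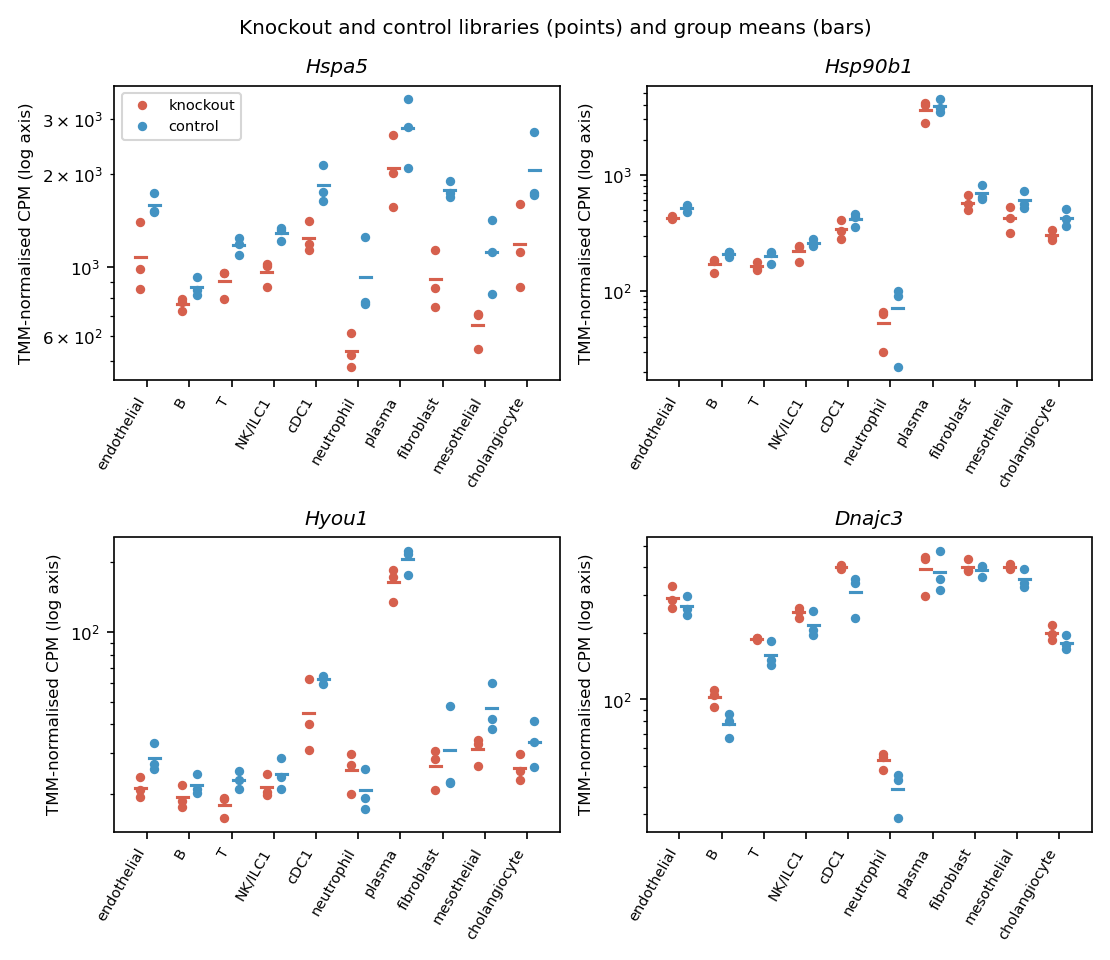
TMM-normalised CPM (log axis) of Hspa5, Hsp90b1, Hyou1 and Dnajc3 in 10 cell classes, with a point for each of 3 knockout (red, left) and 3 control (blue, right) libraries and a bar for each group mean. Hspa5 lies lower in knockout libraries without overlap in 9 classes, and Dnajc3 has the higher knockout mean in all 10. None of these values passed the adjusted test in edgeR, while DESeq2 called Hspa5 in mesothelial-like and Hsp90b1 in cholangiocyte-like cells.

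Other ATF6 targets varied. Hsp90b1 was negative in all 10, between -0.10 and -0.51, and in cholangiocyte-like cells it had 294, 277 and 336 CPM in knockout mice, against 359, 504 and 414 CPM in control mice (log2 fold change -0.50, standard error 0.13, edgeR adjusted p = 0.443). Calr, Canx and Manf were negative in all 10 classes as well and Hyou1 in 9, whereas Creld2 was negative in 5 of the 8 classes where it was tested and Sel1l in 4 of 10. In plasma-like cells Hyou1 had 174, 136 and 185 CPM in knockout mice, against 176, 218 and 224 CPM in control mice, with overlap (log2 fold change -0.31, edgeR adjusted p = 0.821). Among other genes, Atf4 and Ppp1r15a were negative in all 10 classes. In neutrophil-like cells Ppp1r15a had 241, 490 and 381 CPM in knockout mice, against 595, 634 and 834 CPM in control mice (log2 fold change -0.91, standard error 0.28, edgeR adjusted p = 0.467). In cDC1-like cells Syvn1 had 16.8, 14.8 and 17.2 CPM in knockout mice, against 33.7, 34.6 and 24.2 CPM in control mice (log2 fold change -0.88, standard error 0.23, edgeR adjusted p = 0.327). Both sets of values lay apart, without passing the adjusted test.

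Dnajc3 was the gene with a positive log2 fold change in every tested class, from 0.05 in fibroblast-like to 0.42 in neutrophil-like cells. In B-like cells it had 111, 92.1 and 105 CPM in knockout mice, against 79.4, 66.6 and 85.8 CPM in control mice, without overlap (log2 fold change 0.40, standard error 0.12, unadjusted p = 0.00544, edgeR adjusted p = 0.554). In cDC1-like cells it had 398, 394 and 409 CPM in knockout mice, against 235, 340 and 354 CPM in control mice (log2 fold change 0.37, edgeR adjusted p = 0.703). T-like cells had 190, 187 and 189 CPM in knockout mice, against 152, 144 and 185 CPM in control mice (log2 fold change 0.24, edgeR adjusted p = 0.694). In 5 of the 10 classes the groups did not overlap, and 124 of 130 combinations of class and alternative setting stayed positive. How many of all genes did as much was not counted, and the classes share the same mice. Hspa5, whose product is the chaperone that this co-chaperone serves, had the opposite sign in the same libraries.

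**Figure D5:**
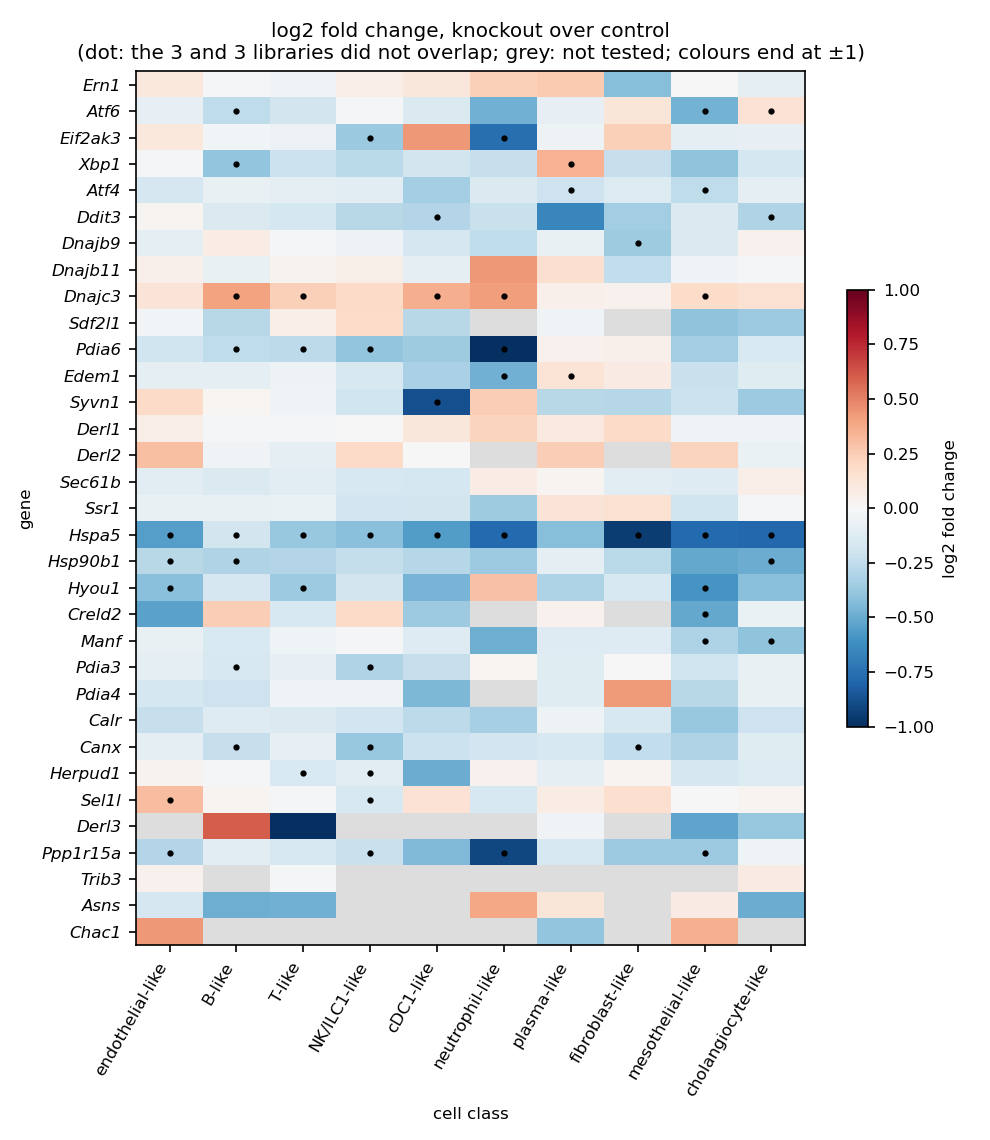
Log2 fold change of knockout over control for 33 genes (rows) in 10 cell classes (columns), with colours ending at 1 and -1, a dot where the 3 knockout and 3 control libraries did not overlap, and grey where a gene did not pass the filter on low counts. The Hspa5 row is blue with dots in 9 classes and the Dnajc3 row is red with dots in 5.

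In 9 of the 10 classes a larger share of the listed genes than of all genes lay below the controls without overlap. A smaller share lay above them in 9 of the 10, and plasma-like cells were the exception both times. The classes share the same mice, and Hspa5 is among the genes below the controls in each of those 9 classes. They are therefore not separate results, and many of the counts are of few genes. Below the controls lay 7 of 31 genes in B-like cells (5.97% of all genes), 8 of 29 in NK or ILC1-like cells (6.36%), 4 of 32 in T-like cells (6.54%), 3 of 29 in cDC1-like cells (6.13%), 4 of 32 in cholangiocyte-like cells (6.94%), 3 of 26 in fibroblast-like cells (4.63%), 7 of 32 in mesothelial-like cells (10%), 5 of 26 in neutrophil-like cells (5.53%) and 1 of 32 in plasma-like cells (5.32%). Above the controls lay 1 in B-like (4.67% of all genes), 0 in NK or ILC1-like (5.03%), 1 in T-like (5.62%), 1 in cDC1-like (6.03%), 1 in cholangiocyte-like (8.32%), 0 in fibroblast-like (4.98%), 1 in mesothelial-like (12.2%), 1 in neutrophil-like (6.64%) and 2 in plasma-like cells (5.72%). DESeq2 called Hsp90b1 in cholangiocyte-like cells (log2 fold change -0.50, adjusted p = 0.0297), where it called 0.285% of all genes. It called Atf6 and Hspa5 in mesothelial-like cells (adjusted p = 0.0378 and 0.00257), where it called 2.2% of all genes, and it called 0 of the listed genes in the other 8 classes. Leaving out control mouse 1 had edgeR call the same 2 genes in mesothelial-like cells, Atf6 at an adjusted p of 0.0362 and Hspa5 at 0.0272, in a fit that called 0.608% of all genes. Without a filter on low counts edgeR called Hspa5 in fibroblast-like cells, along with 0.0998% of all genes.

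Plasma-like cells, with the highest levels, showed 0 of 32 listed genes at an unadjusted p under 0.05 by edgeR, against 6.06% of all genes, and 3 by DESeq2, against 3.55%. Xbp1 had 849, 696 and 712 CPM in knockout mice, against 511, 668 and 602 CPM in control mice (log2 fold change 0.34, standard error 0.17, edgeR adjusted p = 0.809). These groups did not overlap, but in the CPM without TMM factors given above they did, control mouse 2 lying above all 3 knockout mice. In B-like cells Xbp1 had 24.99, 23.6 and 19.4 CPM in knockout mice, against 30.3, 31.9 and 27.7 CPM in control mice, apart in the other direction (log2 fold change -0.40, standard error 0.14, edgeR adjusted p = 0.708). Plasma-like cells made up 2.88%, 0.991% and 1.97% of cells in knockout mice, against 2.21%, 1.9% and 2.49% in control mice. In the sum over all cells of a mouse, which moves with such shares, edgeR called 0% of 18360 genes and 0 of the 33. Hyou1 had 30.7, 26.0 and 30.7 CPM in knockout mice, against 37.7, 43.4 and 37.5 CPM in control mice (log2 fold change -0.44, edgeR adjusted p = 1.0), and Hspa5 had 993, 840 and 1097 CPM in knockout mice, against 1297, 1613 and 1417 CPM in control mice (log2 fold change -0.56, edgeR adjusted p = 1.0).

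Ppp1r15a and Hsp90b1 were the other genes apart in that sum. Ppp1r15a had 397, 565 and 527 CPM in knockout mice, against 579, 649 and 635 CPM in control mice. Hsp90b1 had 466.4, 289 and 432 CPM in knockout mice, against 466.9, 512 and 525 CPM in control mice, so that the first mice of the groups nearly met. With Hspa5 and Hyou1 this made 4 of 33 genes below the controls, against 3.77% of all genes, and 0 above, against 3.22%. The higher means there were small, with log2 fold changes of 0.15 for Dnajc3, 0.30 for Asns, 0.02 for Derl1 and 0.03 for Derl2, each with overlap. Those of Asns, Derl1 and Derl2 turned negative under some alternative settings (lowest values -0.16, -0.03 and -0.07).

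Whether the genotype difference differed between endothelial-like and T-like cells, the largest class, was tested as an interaction with the mouse as a block. edgeR called 0 of the 33 genes and 0% of all 13650 genes. None of the 33 reached an unadjusted p under 0.05, the smallest adjusted p among them was 0.874, and 783 of all genes had an unadjusted p under 0.05.

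The wider machinery of the endoplasmic reticulum was followed in endothelial-like cells through lists of other genes, and edgeR called 0 genes in each. Genes are named here because they had the smallest unadjusted p by edgeR in their direction within a list. For the disulfide and degradation lists only the higher one is named. Of 28 genes of the translocon and glycosylation 14 had a higher and 14 a lower knockout mean (median log2 fold change -0.01), with Spcs3, a signal peptidase subunit, at 0.38 and Sec61g, a subunit of the translocation channel, at -0.47. Of 14 tested genes of disulfide formation and folding 10 were higher and 4 lower (median 0.10), with Txndc5, a disulfide isomerase, at 0.53. Of 23 genes of degradation and retrieval 15 were higher and 8 lower (median 0.03), with the lectin gene Erlec1 at 0.39. Of 27 genes of the integrated stress response, which PERK shares with other kinases, 13 were higher and 14 lower (median -0.06), with Slc3a2, a subunit of amino acid transporters, at 0.25 and the transcription factor gene Cebpb at -1.08.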

How the data were processed

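The deposited files are raw counts of UMIs per gene and cell barcode, 1 matrix per mouse, made with the 10x Genomics 3′ chemistry per the labels and with Cell Ranger 7.1.0 on mm10 per the submitters' processing notes, which also name Seurat 4.1.1. The annotation release is not given in the sources used here, and coordinates come from GENCODE M21 on GRCm38. Barcodes under 300 genes or over 20% mitochondrial UMIs were dropped. Scrublet (expected rate 6%) worked in 4 libraries, and their median threshold of 0.267, applied to all, removed 938 cells. Leiden clustering at resolution 1 (scanpy 1.11.5, 3000 variable genes less the listed ones and those of related pathways, 40 components, 20 neighbours) gave clusters named from marker lists by a mean score of at least 0.4 and a margin of 0.15, limits set after the scores were seen, and 5598 cells stayed unnamed. Levels need at least 10 cells of a class in a library, tests at least 20 in every library.

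Genotypes were compared on summed counts with edgeR 4.0.16 (TMM, filterByExpr, robust quasi-likelihood F-test, Benjamini-Hochberg adjustment over all genes of a class, threshold 0.05), and with DESeq2 1.42.0 as an alternative. The edgeR step was tested on simulated counts with 100 genes changed at each of 2 sizes. At a log2 fold change of 1 it recovered 49% of them in endothelial-like, 51% in plasma-like and 73% in T-like cells. At a log2 fold change of 2 it recovered 89%, 97% and 89%, with 14, 11 and 7 false calls. Smaller changes were not simulated. Genes named with every mouse's value were those of smallest p, 4 each way in endothelial-like cells and in the sum of all cells and 1 each way in other classes, and further values were chosen after they were seen. The listed genes, branches and other lists were chosen with earlier results of these data known. CPM values are not divided by gene length, so levels are compared between classes and not between genes. The labels call the mice biological replicates.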

Additional observations from a re-analysis of the deposited data

Results flagged for a closer look

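These results are listed because the 3 knockout mice lay apart from the 3 control mice upwards in one class and downwards in another, and the difference between the classes was not tested. Xbp1 had a log2 fold change of 0.34 in plasma-like and -0.40 in B-like cells, a difference of 0.739. The plasma-like groups lay apart with TMM factors, while in CPM without them control mouse 2 lay above all 3 knockout mice. Atf6 had 0.14 in cholangiocyte-like cells, against -0.25 in B-like cells (a difference of 0.397) and -0.47 in mesothelial-like cells (a difference of 0.613). Edem1 had 0.14 in plasma-like and -0.48 in neutrophil-like cells, a difference of 0.615. Sel1l had 0.31 in endothelial-like and -0.16 in NK or ILC1-like cells, a difference of 0.467. None of these genes passed the adjusted test in edgeR in either class.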

How the results depend on the processing

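For each comparison of genotypes 13 alternatives were run. The number of listed genes called stayed at 0 in all but 4 combinations of class and setting. It was 1 in cholangiocyte-like and 2 in mesothelial-like cells with the DESeq2 Wald test, 1 in fibroblast-like cells without a filter on low counts (Hspa5, adjusted p = 0.0375), and between 0 and 2 in mesothelial-like cells when a mouse was left out. Hspa5 in mesothelial-like cells ran from -0.96 to -0.57 over the alternatives. The median over the listed genes stayed below 0 under every alternative in 10 of the 11 sums, and plasma-like cells reached 0.12. Over all 13 alternatives that median ran from -0.191 to -0.0291 in B-like cells, -0.163 to -0.0638 in T-like cells and -0.22 to -0.00138 in the sum of all cells. It ran from -0.312 to -0.117 in neutrophil-like, -0.28 to -0.0295 in fibroblast-like and -0.308 to -0.109 in mesothelial-like cells. In endothelial-like cells it ran from -0.0915 to -0.0378, and the cause of these moves was not tested. In the sum of all cells Asns ran from -0.16 to 0.55, Derl1 from -0.0292 to 0.095 and Derl2 from -0.0715 to 0.202. With immunoglobulin genes left out of the totals, which shrinks only the plasma-like denominator much, the median log2 ratio of plasma-like to B-like cells was 2.5, and the plasma-like branch medians were 2.35 for IRE1, 2.05 for ATF6 and 0.52 for PERK. With DESeq2's size factors in place of TMM, Hspa5, Hsp90b1, Calr, Canx, Manf, Atf4 and Ppp1r15a stayed negative and Dnajc3 positive in all 10 classes. Leaving out a mouse turned Dnajc3 negative in at most 2 of the 10 classes. In endothelial-like cells Dnajc3 ran from 0.03 to 0.22, Sel1l from 0.15 to 0.38 and Ppp1r15a from -0.39 to -0.16, the value nearest 0 being that without knockout mouse 1 for each. Over 130 combinations of class and setting Manf stayed negative in 117 and Calr in 125.

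Replicate numbers gave no clear pairing of the mice. In endothelial-like cells same-numbered mice correlated at -0.07, 0.24 and 0.08, and knockout mouse 1 was most like control mouse 3. In fibroblast-like cells they correlated at 0.09, 0.20 and 0.20, and each knockout mouse was most like the control of its number. Whether mice of the same number share a source of variation was not tested. With the replicate block edgeR called 0 listed genes in every class, the endothelial-like median was -0.09, and calls over all genes reached at most 28 (B-like cells).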
